A study of Mus musculus with 16 samples.

Results

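Mice that carried the 5xFAD amyloid transgenes were compared with mice that did not, over both chromosomal backgrounds of the study, to ask which cortical transcripts differed with the transgenes whether or not a segment of chromosome 16 was duplicated. The carriers were the 5xFAD and 5xFAD-Dp16 groups, and the non-carriers the wild-type C57BL/6J and Dp16 groups, with 4 samples in each, so that all 16 libraries of the study entered as 8 against 8. Poly-A RNA from brain cortex was sequenced at 5 months of age, with 1 library per labelled sample.

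5xFAD mice express mutant human transgenes of familial Alzheimer disease, among them the amyloid precursor protein, from the neuronal Thy1 promoter, so the transgene products arise mainly in neurons. Dp16 mice have an extra copy of a chromosome 16 segment syntenic to much of human chromosome 21, which includes the mouse App gene. 5xFAD-Dp16 mice carried both, and all 4 samples were labelled male. The other 3 genotypes had 2 male and 2 female samples each, so the carrier samples were 6 male and 2 female, and the non-carrier samples 4 male and 4 female. No carrier female had the duplication, so changes taken within each background also differ in the sex of the carriers. The labels name an inbred strain for wild-type alone, and littermates are not marked. That samples of a group are separate animals is not stated, so p-values measure the spread between these samples.

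Amyloid deposits in the brain are surrounded by microglia, the resident macrophages, and by astrocytes. Around deposits microglia lower part of their resting programme and raise a set of genes for lipid handling, lysosomal proteases, phagocytic receptors and chemokines, known as the disease-associated programme. The receptor Trem2 and its adaptor Tyrobp are needed for the full programme, and astrocytes around deposits raise the intermediate filament gene Gfap.

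Library totals ran from 12483286 to 20385010 counted reads, and all 16 libraries matched their labelled sex by Xist and Ddx3y. At an equal depth of 12483286 reads, carriers had 20673 ± 441 genes detected and non-carriers 19856 ± 992 (SD, n = 8 each), with wild-type replicates 1 to 3 lowest, between 18331 and 19069. The difference had an unadjusted p of 0.0331 and an adjusted p of 0.132 over 4 library measures (two-sided exact permutation of carrier status within each background, 4900 assignments), and its part in the results was not tested. Wild-type replicate 2 and 5xFAD replicate 3 had the lowest median correlation with the other libraries, at 0.939 and 0.938. Cortical neuron markers were present throughout, with summed levels of 6 excitatory markers from 897 to 3600 CPM (counts scaled to the library total after TMM adjustment) in carriers and from 1362 to 3502 CPM in non-carriers. The choroid plexus marker Ttr reached 677 CPM in 5xFAD-Dp16 replicate 2 and at most 103 CPM in the other 15 libraries.

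Carriers differed from non-carriers in few genes, and the largest differences were in genes of microglia. Of 17019 genes tested with edgeR's quasi-likelihood test, with duplication and sex as additive terms, 15 were higher in carriers (0.0881% of genes tested) and 3 were lower (0.0176%) at a Benjamini-Hochberg adjusted p under 0.05. At an unadjusted p under 0.05, 686 genes were higher (4.03%) and 535 lower (3.14%). DESeq2 placed 85 genes higher (0.5%) and 51 lower (0.3%), among them all 18 genes of the edgeR test. The median log2 change over all genes was 0.00, with 50.8% of genes above 0. Of the 18 genes, 9 passed in each of the 16 models that left out 1 library: Cst7, Clec7a, Itgax, Ccl3, Ccl6, Mpeg1, Gfap, Thy1 and N4bp3. With no sex term in the model 13 of the 18 passed, these 9 among them.

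Thy1, whose promoter drives the transgenes, was the check of the labels. Thy1 (chr9:44043384-44048579, + strand, GRCm38) ran from 809 to 946 CPM in non-carriers, with a median of 872. In carriers it ran from 1449 to 1885 CPM, with a median of 1661. All 8 carrier libraries lay above all 8 non-carrier libraries, and the means of 5xFAD (1640 ± 200 CPM, SD, n = 4) and 5xFAD-Dp16 (1647 ± 138 CPM) were alike. Thy1 rose by 0.93 on the log2 scale (SE 0.08, 1.91-fold, edgeR adjusted p = 6.74e-06). Gene counts do not tell reads of the mouse gene from reads of any Thy1 sequence within the transgenes, and this was not tested. The transgene-derived human sequences were not analysed here, and the mouse gene App did not pass the test. App had means of 1155 ± 273 CPM in wild-type, 1614 ± 205 in Dp16, 837 ± 156 in 5xFAD and 1748 ± 225 in 5xFAD-Dp16 (SD, n = 4 each). Its log2 change between carriers and non-carriers was -0.19 (SE 0.15, edgeR adjusted p = 0.904).

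Cst7, Clec7a and Itgax, 3 of the defining genes of the disease-associated programme, were low in non-carriers, at 1.65 CPM or less, and higher in every carrier than in any non-carrier. Cst7 (chr2:150570415-150578944, + strand) encodes cystatin F, an inhibitor of lysosomal cysteine proteases. It measured 0, 0, 1.33 and 0.316 CPM in the 4 wild-type libraries and 0.781, 0.285, 0.101 and 0.594 in Dp16. In 5xFAD it measured 57.0, 53.2, 30.8 and 21.0 CPM, and in 5xFAD-Dp16 15, 15.1, 13 and 7.87. The lowest carrier library was above the highest non-carrier library, and every 5xFAD library was above every 5xFAD-Dp16 library. The fitted log2 change was 5.92 (SE 0.47, edgeR adjusted p = 4.9e-06).

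Clec7a (chr6:129461591-129472779, - strand) encodes Dectin-1, a receptor for beta-glucans on myeloid cells. It measured 0.952, 0.743, 0.182 and 0.421 CPM in wild-type and 1.63, 1.65, 1.01 and 1.48 in Dp16, where the libraries held 20 to 30 counts. In 5xFAD it measured 47.4, 44.5, 32.3 and 21.0 CPM, and in 5xFAD-Dp16 12.1, 12.4, 13.7 and 9.91. The 4 groups did not overlap, with Dp16 above wild-type and 5xFAD above 5xFAD-Dp16. The pooled log2 change was 4.57 (SE 0.40, 23.7-fold, adjusted p = 6.74e-06), made up of 5.93 (SE 0.40) in 5xFAD against wild-type and 3.17 (SE 0.31) in 5xFAD-Dp16 against Dp16. The difference between those changes, tested as the interaction of transgene and duplication, had an adjusted p of 0.235, and passed the threshold when wild-type replicate 1 was left out.

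Itgax (chr7:128129547-128150657, + strand), the integrin subunit CD11c of dendritic cells and activated microglia, had 5 counts in all over the 8 non-carriers, 1 in wild-type replicate 4 and 4 in Dp16 replicate 3. The 5xFAD libraries held 67 and 67 counts in females and 12 and 11 in males, and the all-male 5xFAD-Dp16 libraries 50, 21, 15 and 10. In CPM the carriers ran from 0.55 to 4.41 and the non-carriers from 0 to 0.203, with no overlap. The fitted log2 change of 5.59 (SE 0.76, edgeR adjusted p = 0.00278) depends on the prior count at such low levels, and it moved between 5.30 and 7.62 when single libraries were left out. In carriers the mean level per length was 26.8 RPKM (reads scaled to gene length and library total) for Cst7, 10.5 for Clec7a and 0.423 for Itgax.

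The chemokines Ccl3 and Ccl6, which attract leukocytes, were also higher in carriers. Ccl3 (chr11:83647844-83649355, - strand) was at 0 in 4 of 8 non-carriers and reached 0.526 CPM in wild-type replicate 4. In 5xFAD it measured 4.22, 4.34, 3.17 and 0.899 CPM, and in 5xFAD-Dp16 0.956, 2.49, 1.72 and 1.76. The carriers lay above all non-carriers, and the 2 carrier groups overlapped. The fitted log2 change of Ccl3 was 4.40 (SE 0.63, edgeR adjusted p = 0.00379).

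Ccl6 (chr11:83587882-83593087, - strand) was measured in every library, with means of 4.45 ± 1.86 CPM in wild-type, 3.65 ± 0.584 in Dp16, 35.8 ± 9.44 in 5xFAD and 11.8 ± 2.49 in 5xFAD-Dp16 (SD, n = 4 each). Non-carriers ran from 2.1 to 6.24 CPM and carriers from 8.26 to 44.9 CPM, so the 2 sides did not overlap, and Ccl6 rose 5.27-fold (log2 change 2.4, SE 0.26, adjusted p = 0.000161). Slamf9 (chr1:172475358-172478575, + strand), a receptor of the signalling lymphocyte activation family on myeloid cells, ran from 0.354 to 3.06 CPM in non-carriers and from 2.72 to 7.83 in carriers. The sides overlapped, since wild-type replicate 2 exceeded 2 of the 5xFAD-Dp16 libraries. Its log2 change was 1.92 (SE 0.35, adjusted p = 0.0399), and it passed in 5 of the 16 models without 1 library.

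**Figure D1:**
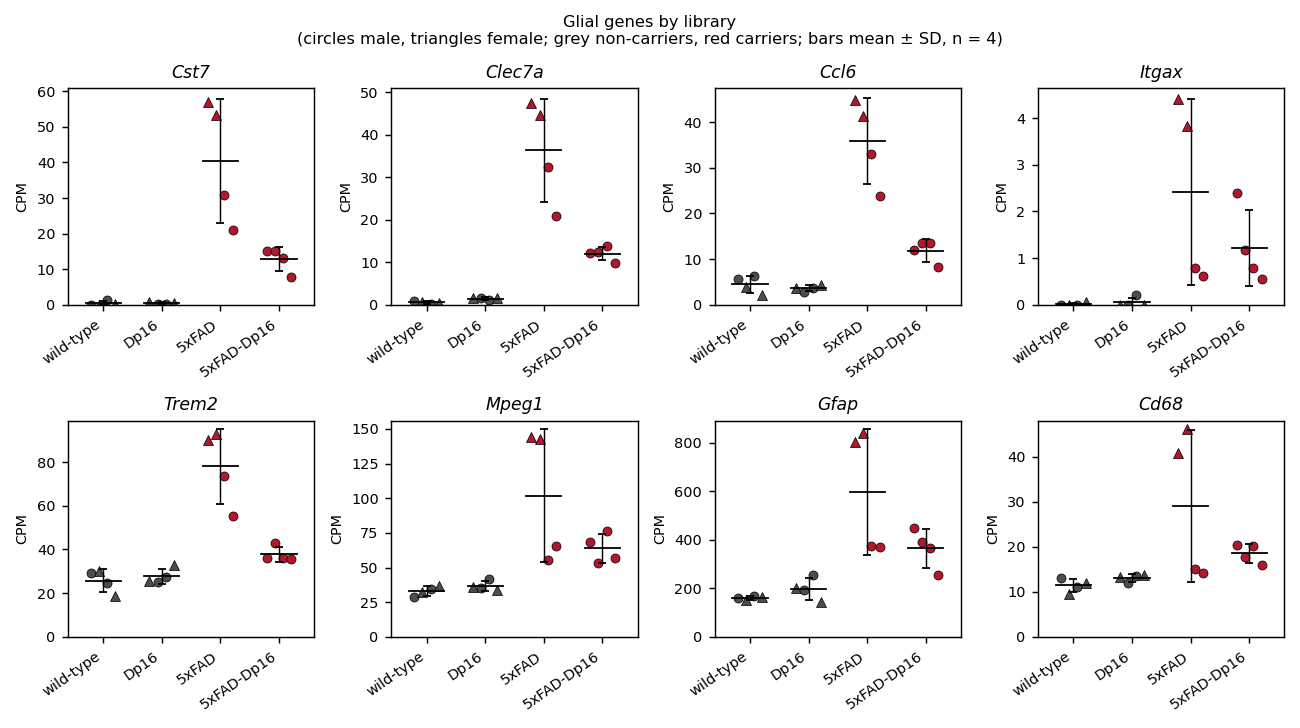
Level in CPM (vertical axes, linear, from 0) of 8 glial genes in each library of the 4 genotypes; triangles are females, circles males, and bars the mean ± SD of 4 libraries. For Cst7, Clec7a and Ccl6 all carriers lie above all non-carriers and 5xFAD above 5xFAD-Dp16. The 2 female 5xFAD libraries stand above the 5xFAD males for Mpeg1, Gfap and Cd68, and also for Cst7, Clec7a, Trem2 and Itgax.

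Trem2, Mpeg1 and Ptprc, genes of microglia at rest as well as in disease, were higher by smaller factors. Trem2 (chr17:48346401-48354147, + strand), the lipid-sensing receptor, ran from 18.7 to 32.9 CPM in non-carriers, with a median of 26.4. In carriers it measured 89.9, 92.7, 73.7 and 55.5 CPM in 5xFAD and 36.3, 43.0, 36.0 and 35.8 in 5xFAD-Dp16. The sides did not overlap, and all 4 5xFAD-Dp16 libraries lay below all 4 5xFAD libraries. Trem2 rose 2.14-fold (log2 change 1.10, SE 0.17, edgeR adjusted p = 0.0117). It missed the threshold when either female 5xFAD library (replicates 1 and 2) or wild-type replicate 3 was left out, with an adjusted p of at most 0.0632.

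Mpeg1 (chr19:12460779-12465283, + strand) encodes perforin-2, a pore-forming protein of macrophages. It ran from 28.5 to 42.0 CPM in non-carriers and from 53.4 to 144 CPM in carriers, and rose 2.42-fold (log2 change 1.27, SE 0.17, edgeR adjusted p = 0.00243). The 2 female 5xFAD libraries, at 144 and 143 CPM, were above the 5xFAD males, at 55.3 and 65.6 CPM, and the males lay within the range of the all-male 5xFAD-Dp16 group. Ptprc (chr1:138062861-138175708, - strand), the leukocyte phosphatase CD45, ran from 2.50 to 4.21 CPM in non-carriers and from 4.35 to 8.24 CPM in carriers. Its log2 change was 0.94 (SE 0.17, adjusted p = 0.0394), and it passed in 3 of the 16 models without 1 library.

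Read as a list, 40 of 41 disease-associated microglial genes were measured well enough to test. Of these 40, 6 rose past the threshold (Cst7, Clec7a, Itgax, Ccl3, Ccl6 and Trem2), none fell, 38 had a log2 change above 0, and the median was 0.71 against 0.00 over all genes. With DESeq2, 16 of the 40 were higher and 0 lower, and at an unadjusted p under 0.05 with edgeR 28 were higher and 0 lower. Tyrobp, the Trem2 adaptor, had means of 40.3 CPM in wild-type, 39.7 in Dp16, 125 in 5xFAD and 49.0 in 5xFAD-Dp16 (log2 change 1.04, SE 0.21, adjusted p = 0.0693). Lyz2, the lysozyme of macrophages, had means of 26.1, 34.7, 98.9 and 43.6 CPM in the same order (log2 change 1.20, adjusted p = 0.0701). Apoe, a lipid carrier of this programme and also an abundant astrocyte transcript, had the lowest log2 change of the list, at -0.14 (adjusted p = 0.879). Gpnmb and Spp1, late members of the programme, had log2 changes of 0.71 (adjusted p = 0.589) and 0.01 (adjusted p = 0.999).

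Few genes of resting microglia passed the test. Of 22 homeostatic genes 0 rose past the threshold with edgeR, and 1 fell (Rhob, described with the lower genes). At an unadjusted p under 0.05, 4 were higher and 1 lower, DESeq2 placed 2 higher and 1 lower, and the median log2 change was 0.17. That median was 0.06 in 5xFAD against wild-type and 0.00 in 5xFAD-Dp16 against Dp16, and in males alone it was -0.10, with 14 of 22 below 0. P2ry12, the purinergic receptor, had means of 65.3 CPM in wild-type, 61.9 in Dp16, 97.3 in 5xFAD and 66.5 in 5xFAD-Dp16 (log2 change 0.39, edgeR adjusted p = 0.207). Tmem119 had a log2 change of -0.21 (adjusted p = 0.923) and Cx3cr1, the fractalkine receptor, one of 0.27 (adjusted p = 0.763). The summed level of 10 general microglial markers was 405 to 491 CPM in non-carriers and 441 to 854 CPM in carriers, with medians of 432 and 560. In bulk tissue more cells of a type and more RNA per cell cannot be told apart. Of cells from blood, 8 markers of perivascular and blood-derived macrophages summed to at most 9.42 CPM in non-carriers and 8.59 CPM in carriers. Lymphocyte markers, 10 in number, summed to 35 to 45.6 CPM in non-carriers and 28.1 to 55.7 CPM in carriers. Neutrophil markers, 7 in number, summed to 0.413 to 31.1 CPM and 3.38 to 10.3 CPM. The lymphocyte gene Ms4a1 and the neutrophil gene Ly6g had 3 or fewer counts over all libraries, and the part of these cells in the results was not tested.

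The lists of myeloid signalling, chemokines and complement had positive medians and few genes past the threshold. The carriers with the duplication were all male, so medians by background do not separate the duplication from sex. Of 23 genes of myeloid receptor signalling 1 rose (Trem2), 19 were above 0 and the median log2 change was 0.52, with 0.63 in 5xFAD against wild-type and 0.13 in 5xFAD-Dp16 against Dp16. Of 18 chemokine and cytokine genes tested 2 rose (Ccl3 and Ccl6), 11 were above 0 and the median was 0.40. It was 0.13 over 16 genes tested in 5xFAD against wild-type and 0.06 over 14 in 5xFAD-Dp16 against Dp16. Over the 12 genes with a mean of at least 1 CPM the pooled median was 0.14, with 6 above 0. With no sex term in the model it was 0.17. Ccl4, the close relative of Ccl3, reached 0.247 CPM at most in non-carriers and ran from 0.388 to 1.38 in carriers without overlap (log2 change 3.26, SE 0.71, adjusted p = 0.0978). Of 18 complement genes 0 passed with edgeR in either direction, 7 were higher at an unadjusted p under 0.05 and 0 lower, and DESeq2 placed 1 higher (Itgb2). Of these 18, 11 were above 0, and the median was 0.40, with 0.47 in 5xFAD against wild-type and 0.01 in 5xFAD-Dp16 against Dp16. C1qa and C1qb, subunits of the first complement component, had log2 changes of 0.41 (adjusted p = 0.367) and 0.45 (adjusted p = 0.294). Itgb2, the beta subunit of the complement receptors, ran from 4.64 to 9.15 CPM in non-carriers and from 7.53 to 19.1 in carriers (log2 change 0.77, SE 0.18, adjusted p = 0.153).

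Lysosomal genes had a median change near 0, with the highest values in macrophage genes. Of 43 tested 0 passed with edgeR, 24 were above 0 and the median log2 change was 0.05, while 8 were higher at an unadjusted p under 0.05 and 0 lower, and DESeq2 placed 5 higher, among them Lyz2, Cd68, Ctss and Ctsd. Cd68, a lysosomal glycoprotein of macrophages, ran from 9.42 to 13.8 CPM in non-carriers and from 14.2 to 46.1 CPM in carriers. The sides did not overlap, and the 5xFAD females, at 40.8 and 46.1 CPM, were far above the 5xFAD males, at 15.1 and 14.2 CPM (log2 change 0.98, SE 0.19, edgeR adjusted p = 0.068). Ctss, a cysteine protease of microglia, had a log2 change of 0.65 (adjusted p = 0.0686), and Ctsd, the main lysosomal aspartic protease, one of 0.57 (adjusted p = 0.078). Of 23 antigen presentation genes none passed with edgeR, 2 were higher at an unadjusted p under 0.05, DESeq2 called 0, and the median was 0.04. B2m, the invariant chain of class I molecules, had the smallest p, with a log2 change of 0.34 (adjusted p = 0.445). Tap1, a subunit of the peptide transporter, had the highest log2 change, at 1.24 (SE 0.51, adjusted p = 0.607), and was a low transcript of at most 3.24 CPM.

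Interferon-stimulated genes had small positive changes that did not pass singly. Of 43 tested 0 passed with edgeR, 36 were above 0 and the median log2 change was 0.40. At an unadjusted p under 0.05, 14 were higher and 0 lower, and DESeq2 placed 2 higher (Irf8 and Rtp4). Irf8, a transcription factor of microglia as well as of the interferon response, ran from 5.42 to 11.7 CPM in non-carriers and from 8.31 to 22.8 CPM in carriers (log2 change 0.78, SE 0.19, edgeR adjusted p = 0.169). Ifit3, which is induced by type I interferon and binds other antiviral proteins, ran from 7.81 to 14.9 CPM in non-carriers and from 11 to 20.8 CPM in carriers (log2 change 0.53, SE 0.16, adjusted p = 0.367). The median change of the list was 0.53 in 5xFAD against wild-type and 0.08 in 5xFAD-Dp16 against Dp16, where all carriers were male.

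Some promoters of these genes held the interferon response element. This element is bound by an interferon-induced factor complex that includes Irf9, and its core was searched as GAAA, any 2 bases and GAAA on both strands in the 250 bases before each gene's start (RefSeq, GRCm38.p6). It was found in 17 of the 36 list members that have an entry (47.2%), against 3.46% of 27025 genes. The stretches around it in 4 members are shown because their genes were among the 14, with the matching bases in capitals and a match on the opposite strand printed as its reverse complement.
Ifit3, chr19:34583313-34583476, + strand: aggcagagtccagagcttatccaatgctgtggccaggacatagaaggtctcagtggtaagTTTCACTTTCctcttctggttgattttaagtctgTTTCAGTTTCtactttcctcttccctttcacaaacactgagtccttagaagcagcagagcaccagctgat
Gbp3, chr3:142559939-142560043, + strand: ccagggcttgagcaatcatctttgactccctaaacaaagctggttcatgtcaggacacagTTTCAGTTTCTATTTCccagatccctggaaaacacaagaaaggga
Bst2, chr8:71537527-71537662, - strand: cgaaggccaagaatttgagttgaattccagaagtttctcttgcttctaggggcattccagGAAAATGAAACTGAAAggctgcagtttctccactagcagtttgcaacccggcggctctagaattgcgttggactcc
Oas1a, chr5:120907526-120907605, - strand: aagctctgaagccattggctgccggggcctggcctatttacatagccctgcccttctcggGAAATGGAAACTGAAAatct
Each holds 2 matches, which overlap in Gbp3, Bst2 and Oas1a and stand apart in Ifit3. The nearest match ends 112 bases before the start in Ifit3, 29 in Gbp3, 114 in Bst2 and 4 in Oas1a. Among the tested members, the 16 that hold the motif had a median log2 change of 0.43 and the 19 that have an entry without it one of 0.33. Gbp3, a guanylate-binding protein, had a log2 change of 0.72 (edgeR adjusted p = 0.402). Bst2, tetherin, had one of 0.77 (adjusted p = 0.535), and Oas1a, an oligoadenylate synthetase, one of 0.71 (adjusted p = 0.604).

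A myeloid and a lysosomal motif were searched in the same windows on both strands. GAGGAAGT, a site of the microglial factor Spi1, was found in 1 of 32 disease-associated genes with an entry (3.13%), in 0 of 17 homeostatic genes and in 3 of 17 genes of myeloid receptor signalling (17.6%), against 2.79% of all genes. Of the 16 genes past the threshold that have an entry, Slamf9 alone held it. CACGTGAC, part of the lysosomal element bound by Tfeb, was found in 7 of 35 lysosomal genes (20%) against 2.11% of all genes. Those 7 had a median log2 change of -0.08 and the other 28 one of 0.14.

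Gfap was the only gene of the astrocyte lists past the threshold. Gfap (chr11:102887336-102900912, - strand) ran from 143 to 253 CPM in non-carriers, with a median of 167. It measured 802 and 840 CPM in the 5xFAD females, 373 and 370 in the 5xFAD males, and 449, 391, 366 and 256 in the 5xFAD-Dp16 males. The lowest carrier, 5xFAD-Dp16 replicate 4, was just above the highest non-carrier, Dp16 replicate 3. Gfap rose 2.68-fold (log2 change 1.42, SE 0.20, edgeR adjusted p = 0.00379). The reactive astrocyte list had no common direction: of 27 tested, 15 were above 0 and 12 below, with a median of 0.08, and at an unadjusted p under 0.05 there were 5 higher and 5 lower. Serpina3n, a serine protease inhibitor of reactive astrocytes, had a log2 change of 0.52 (adjusted p = 0.481), and Vim, a second filament gene, one of -0.08 (adjusted p = 0.992). Hspb1, a small heat shock protein, ran from 3.12 to 7.90 CPM in non-carriers and from 1.35 to 4.34 in carriers (log2 change -1.12, SE 0.29, adjusted p = 0.219). Of 24 homeostatic astrocyte genes 0 passed with edgeR or DESeq2, with 0 higher and 2 lower at an unadjusted p under 0.05 and a median of -0.04.

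The 3 genes lower in carriers were N4bp3, Rhob and Fam83d, and each was lower by a like amount on both backgrounds. N4bp3 (chr11:51643063-51650842, - strand), which binds the ubiquitin ligase Nedd4, ran from 20.4 to 27.2 CPM in non-carriers and from 13.4 to 17.9 CPM in carriers. The sides did not overlap, and N4bp3 fell by 0.65 on the log2 scale (-0.65, SE 0.10, edgeR adjusted p = 0.00565), with -0.65 in 5xFAD against wild-type and -0.74 in 5xFAD-Dp16 against Dp16. Rhob (chr12:8497661-8500009, - strand), a small GTPase of endosomes and the cytoskeleton that is also listed among resting microglial genes, ran from 353 to 438 CPM in non-carriers and from 280 to 337 in carriers. Its log2 change was -0.40 (SE 0.07, adjusted p = 0.0271) without overlap of the sides, and it passed in 4 of the 16 models without 1 library.

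Fam83d (chr2:158768093-158786637, + strand), a protein of the mitotic spindle, was a low transcript, with 22 to 43 counts per non-carrier library and 5 to 17 per carrier library. It ran from 1.27 to 2.70 CPM in non-carriers and from 0.286 to 0.899 CPM in carriers without overlap, and its log2 change was -1.80 (SE 0.31, edgeR adjusted p = 0.0289). It passed in 7 of the 16 models without 1 library and not with limma-voom (adjusted p = 0.0542). Npy, the neuropeptide Y of inhibitory neurons, was lower in all carriers, from 102 to 120 CPM, than in all non-carriers, from 127 to 183 CPM. Its log2 change of -0.38 (SE 0.08) had an edgeR adjusted p of 0.068 and a DESeq2 adjusted p of 6.44e-05. With no sex term its edgeR adjusted p was 0.0348.

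**Figure D2:**
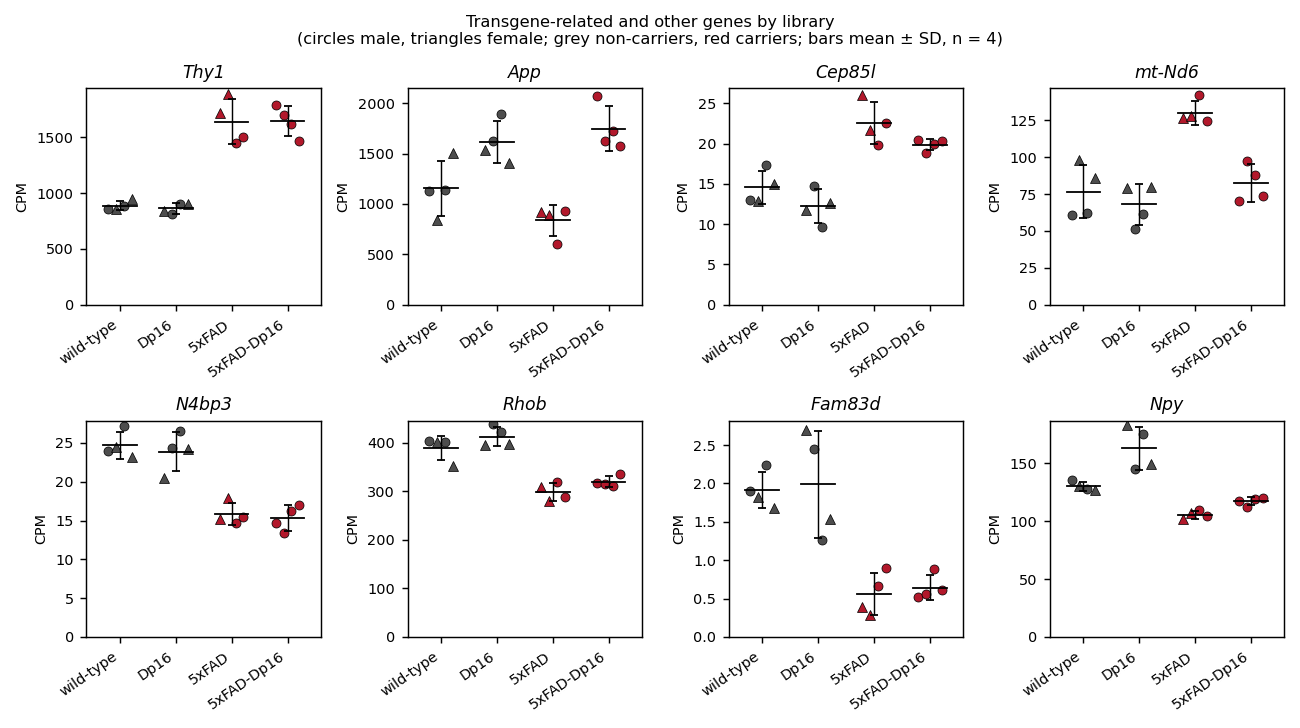
Level in CPM (vertical axes, linear, from 0) of Thy1, App and 6 further genes in each library of the 4 genotypes; triangles are females, circles males, and bars the mean ± SD of 4 libraries. Thy1, N4bp3, Rhob, Fam83d and Npy separate all 8 carriers from all 8 non-carriers, App has higher means with the duplication instead, and mt-Nd6 is high in 5xFAD alone.

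The remaining 4 genes past the threshold were Cep85l, mt-Nd6, Meg3 and Smg1. Cep85l (chr10:53273443-53379947, - strand), a centrosomal protein of migrating neurons, ran from 9.67 to 17.3 CPM in non-carriers and from 18.9 to 26.0 in carriers without overlap (log2 change 0.67, SE 0.11, edgeR adjusted p = 0.0255). mt-Nd6 (chrM:13552-14070, - strand), a respiratory complex I subunit encoded on the strand opposite to most mitochondrial genes, had means of 76.8 ± 18.1 CPM in wild-type, 68.0 ± 13.9 in Dp16, 130 ± 8.12 in 5xFAD and 82.5 ± 12.6 in 5xFAD-Dp16. Its sides overlapped (log2 change 0.65, SE 0.12, adjusted p = 0.0346), and the strand setting of the counting is not given in the sources used here, so reads of the opposite strand cannot be told apart. Meg3, an imprinted long noncoding RNA of neurons, and Smg1, a kinase of nonsense-mediated decay, had log2 changes of 0.50 (adjusted p = 0.0399) and 0.53 (adjusted p = 0.0483) with overlapping sides. Cep85l, Meg3, Smg1 and the phosphatase Ptprc were no longer past the threshold when a trend of the counts on gene length was removed per library, with adjusted p from 0.0695 to 0.51. The log2 changes were then 0.89 for Ptprc, 0.56 for Cep85l, 0.34 for Meg3 and 0.37 for Smg1. Cep85l, Meg3, Smg1 and Ptprc passed in 5, 3, 2 and 3 of the 16 models without 1 library, and mt-Nd6 in 7.

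Without regard to any test, 17 genes had all 8 carriers above all 8 non-carriers (0.0999% of genes) and 20 had all 8 below (0.118%). Of the 17, 11 were past the threshold, and the others were Cd68, Ccl4, Mylip, Srpk2 and a pair of unnamed loci. Mylip, a ubiquitin ligase for lipoprotein receptors, ran from 8.75 to 12.7 CPM in non-carriers and from 13.4 to 19.6 in carriers (log2 change 0.61, SE 0.12, edgeR adjusted p = 0.068). Of the 20 lower genes 3 were past the threshold. Trf, the iron carrier transferrin made by oligodendrocytes, ran from 453 to 540 CPM in non-carriers and from 255 to 434 in carriers (log2 change -0.40, SE 0.10, adjusted p = 0.19). Itm2c, a membrane protein that binds the amyloid precursor protein, ran from 872 to 969 CPM in non-carriers and from 651 to 840 in carriers (log2 change -0.28, SE 0.07, adjusted p = 0.224).

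Lists of the myelin sheath and of vessels had mostly negative changes, with no gene past the threshold. Of 26 genes of myelin and mature oligodendrocytes 24 were below 0 and the median log2 change was -0.20. In 5xFAD against wild-type 21 of 26 were below 0, with a median of -0.27, and in 5xFAD-Dp16 against Dp16 14 of 26, with a median of -0.05. With edgeR 0 passed, at an unadjusted p under 0.05 there were 10 lower and 0 higher, and DESeq2 placed 3 lower (Mog, Trf and Mag). Mog, a glycoprotein of the outer myelin layer, ran from 65.7 to 101 CPM in non-carriers and from 50.9 to 67.8 in carriers (log2 change -0.48, SE 0.10, edgeR adjusted p = 0.068). With no sex term its edgeR adjusted p was 0.0366. Mbp, a major myelin protein, had a log2 change of -0.31 (adjusted p = 0.451). The summed level of 8 oligodendrocyte markers was 6955 to 9065 CPM in non-carriers and 6040 to 7763 CPM in carriers.

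All 24 endothelial genes had a negative pooled log2 change, with a median of -0.39, whereas 49.2% of all genes did. In 5xFAD against wild-type 23 were below 0, with a median of -0.57, and in 5xFAD-Dp16 against Dp16 21, with a median of -0.36. With edgeR 0 passed, at an unadjusted p under 0.05 there were 9 lower and 0 higher, and DESeq2 placed 3 lower (Ly6a, Bsg and Ocln). Ly6a, a surface protein of brain endothelium, ran from 18.6 to 30.3 CPM in non-carriers and from 13.4 to 19.8 in carriers (log2 change -0.48, SE 0.10, edgeR adjusted p = 0.091). Pecam1, an adhesion protein of endothelial junctions, had means of 12.4 CPM in wild-type, 13.1 in Dp16, 6.16 in 5xFAD and 10.9 in 5xFAD-Dp16 (log2 change -0.67, SE 0.26, adjusted p = 0.552). Cldn5, the tight junction claudin, had a log2 change of -0.31 pooled, with -0.67 in 5xFAD against wild-type and 0.26 in 5xFAD-Dp16 against Dp16 (pooled adjusted p = 0.701). Of 18 genes of mural cells and fibroblasts 15 were below 0 with a median of -0.28, 0 passed with edgeR or DESeq2, and 2 were lower at an unadjusted p under 0.05. A set of 6 endothelial markers summed to 118 to 176 CPM in non-carriers and 75.0 to 168 CPM in carriers. Blood markers, 5 in number, summed to 74.5 to 418 CPM and 105 to 270 CPM, and their part in the vessel values was not tested.

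Lists of neurons had pooled medians near 0. Of 22 genes of excitatory neurons and cortical layers, 30 of inhibitory neurons and 42 of synapses, 0 passed with edgeR, and the median log2 changes were -0.04, -0.03 and 0.01. The backgrounds differed in sign: of the 42 synaptic genes 33 were below 0 in 5xFAD against wild-type (median -0.21) and 36 above 0 in 5xFAD-Dp16 against Dp16 (median 0.08). The excitatory list had medians of -0.23 and 0.07 and the inhibitory list -0.01 and -0.10, and the differences between backgrounds were not tested for the lists. At an unadjusted p under 0.05 the excitatory, inhibitory and synaptic lists held 1, 3 and 0 lower genes and 0, 0 and 1 higher genes, and DESeq2 called Npy alone. Sst, the somatostatin of inhibitory neurons, had a log2 change of -0.29 (adjusted p = 0.481), and Gabrb2, a GABA receptor subunit, one of 0.37 (adjusted p = 0.552). Of 34 immediate early genes, which neurons raise with activity, 0 passed with edgeR or DESeq2 and 6 were lower at an unadjusted p under 0.05, and the median was -0.50 in 5xFAD against wild-type and 0.03 in 5xFAD-Dp16 against Dp16. Arc, an activity-induced synaptic gene, ran from 86.4 to 266 CPM in non-carriers and from 37.8 to 263 in carriers, and the sides overlapped over most of their range.

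Lists of cell stress and of lipids had medians near 0. Of 35 genes of the unfolded protein response and heat shock 28 were below 0 with a median log2 change of -0.09, 0 passed with edgeR, 9 were lower at an unadjusted p under 0.05, and DESeq2 placed 1 lower (Hspb1). Of 31 genes of cholesterol synthesis and efflux the median was 0.05, 0 passed with edgeR, 4 were higher and 1 lower at an unadjusted p under 0.05, and DESeq2 placed 1 higher (Stard4). Stard4, which moves cholesterol between membranes, ran from 19.7 to 31.6 CPM in non-carriers and from 30.8 to 44.9 in carriers (log2 change 0.49, SE 0.11, edgeR adjusted p = 0.108). Of 23 genes of amyloid precursor processing and amyloid removal 0 passed with edgeR or DESeq2, 1 was lower at an unadjusted p under 0.05, and the median was -0.07. That gene was Mme, the amyloid-degrading protease neprilysin, with 15 to 23.5 CPM in non-carriers and 7.74 to 20.5 in carriers (log2 change -0.50, SE 0.18, adjusted p = 0.526). Bace1, the beta-secretase, had a log2 change of -0.04 (adjusted p = 0.996).

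**Figure D3:**
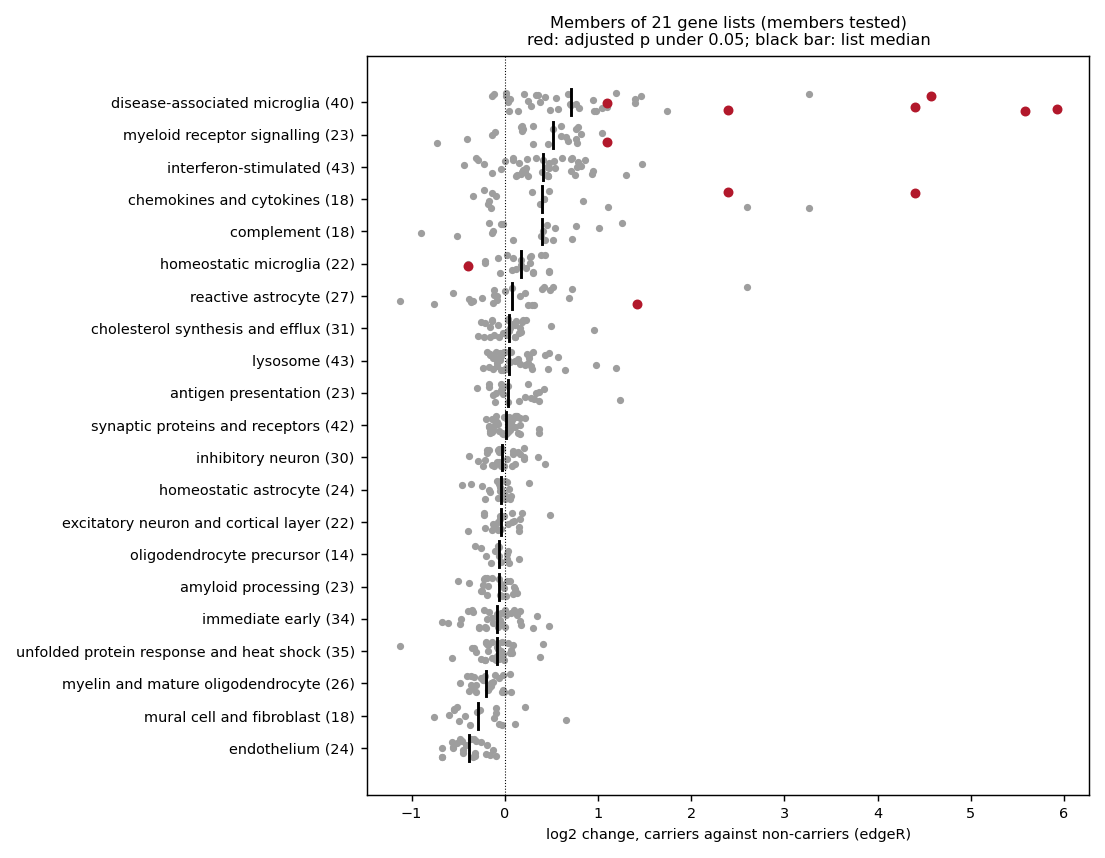
Log2 change of carriers against non-carriers (horizontal axis, edgeR) for each tested member of 21 gene lists, ordered by list median; points in red are past an adjusted p of 0.05, black bars are list medians, and the number tested is in brackets. The disease-associated microglial list has the highest median, 0.71, and 6 members past the threshold, and all 24 endothelial genes lie below 0.

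All 18 genes had the same sign on both backgrounds, whose libraries also gave the pooled calls. Estimates differed in size for some of these genes. With the 8 libraries without the duplication alone, 7 genes passed higher (0.044% of 15914) and 0 lower, with 777 lower at an unadjusted p under 0.05 (4.88%). With the 8 libraries with the duplication alone, where the sex term rests on Dp16, 3 passed higher (0.0187% of 16038) and 2 lower (0.0125%). Of the 18 genes, Cst7, Itgax, Clec7a, Ccl6, Gfap and Trem2 passed in the former and Thy1, Cst7 and Clec7a in the latter. Thy1, N4bp3, Rhob and Cep85l had close estimates in both: Thy1 had 0.87 and 0.93, Cep85l 0.61 and 0.70, and Rhob -0.39 and -0.43. Cst7 had 6.42 (SE 0.74) and 6.02 (SE 0.50), the latter with a sex term fitted on Dp16 libraries of 2 to 12 counts, although its level was higher in every 5xFAD library than in any 5xFAD-Dp16 library, and its interaction was -1.09 (SE 1.01, edgeR adjusted p = 0.633). Ccl6 had 3.02 and 1.83, Trem2 1.57 and 0.52, Gfap 1.76 and 0.70, and Mpeg1 1.48 and 0.72, each smaller with the duplication. For Gfap and Mpeg1, however, male libraries of both carrier genotypes had like levels, given below. Itgax had 6.69 (SE 0.82) and 3.45 (SE 1.07), and Ccl3 went the other way, with 3.90 (SE 0.88) and 4.83 (SE 1.01), both from few counts. The median of the disease-associated list was 0.98 without the duplication and 0.27 with it, over 39 genes tested in each. Carriers without the duplication were 2 males and 2 females, and those with it 4 males. In these paired values the duplication and the sex of the carriers cannot be told apart. Across the 15555 genes tested in both, which share no library, the 2 changes had a Pearson r of 0.14 and a Spearman rho of 0.05, and 50.4% of genes had the same sign; genes are not independent replicates.

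The interaction of transgene and duplication, with sex as a term, was past the threshold for 0 genes with edgeR, for 1591 at an unadjusted p under 0.05 (9.35%) and for 21 with DESeq2 (0.123%). Its adjusted p was 0.522 for Trem2, Gfap and Ccl6 and 0.526 for Mpeg1. In the same sex the groups can be set side by side for males: the 2 male 5xFAD libraries had mean levels of 371 CPM for Gfap, 60.4 for Mpeg1, 14.6 for Cd68 and 185 for Ctss, and the 4 male 5xFAD-Dp16 libraries 366, 63.8, 18.5 and 183. For Trem2 the male means were 64.6 and 37.8 CPM, for Clec7a 26.6 and 12, for Cst7 25.9 and 12.7, for Ccl6 28.4 and 11.8, and for Tyrobp 107 and 49.0. The first 4 genes were thus alike in males of the 2 carrier genotypes, and the latter 5 were higher in males without the duplication. Itgax went the other way from few counts, with a lower mean in male 5xFAD than in male 5xFAD-Dp16 libraries and overlapping ranges. These male values are a description with no test.

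The same genes were higher in the female than in the male 5xFAD libraries. For Cst7, Clec7a and Trem2, as for Gfap, Mpeg1 and Cd68, every female 5xFAD library was above every male one. The 2 female carriers had mean levels of 821 CPM for Gfap, 143 for Mpeg1, 43.5 for Cd68, 305 for Ctss and 4.12 for Itgax, and the 5xFAD males 371, 60.4, 14.6, 185 and 0.705. In wild-type the female and male means were 158 and 165 CPM for Gfap, 34.7 and 31.7 for Mpeg1, 10.7 and 12.1 for Cd68, and 124 and 123 for Ctss. In Dp16 they were 171 and 224 CPM for Gfap, 34.7 and 38.6 for Mpeg1, 13.5 and 12.7 for Cd68, and 159 and 164 for Ctss, and the male Dp16 replicate 3 was the highest non-carrier for Gfap. Itgax was near 0 in both sexes of both groups. The interaction of transgene and sex, male minus female, was -1.55 on the log2 scale for Cd68 (edgeR adjusted p = 0.071), -1.28 for Mpeg1 (adjusted p = 0.128) and -1.49 for Gfap (adjusted p = 0.155). For Cst7, Clec7a, Trem2 and Ccl6 it was -1.10, -1.22, -0.80 and -1.23 (edgeR adjusted p = 0.964 for each). It was past the threshold for 0 genes with edgeR, for 558 at an unadjusted p under 0.05 (3.28%) and for 5 with DESeq2 (0.0294%), namely Ctsd, Cd68, Gfap, Ctss and Mpeg1. Cd68 and Mpeg1 passed with edgeR when wild-type replicate 4 was left out. It rests on 2 female carriers, both without the duplication.

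In males alone, 6 carriers against 4 non-carriers, 4 of 17567 genes passed higher (0.0228%) and 0 lower with edgeR. At an unadjusted p under 0.05, 537 were higher (3.06%) and 672 lower (3.83%). The 4 were Thy1 (log2 change 0.85, adjusted p = 0.00321), Cst7 (5.54, adjusted p = 0.000966), Clec7a (4.08, adjusted p = 0.00135) and Ccl6 (2.01, adjusted p = 0.00103). Gfap had a log2 change of 0.89 (adjusted p = 0.103), Mpeg1 one of 0.80 (adjusted p = 0.091), Trem2 one of 0.82 (adjusted p = 0.166) and N4bp3 one of -0.76 (adjusted p = 0.091). All 18 genes kept their sign.

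**Figure D4:**
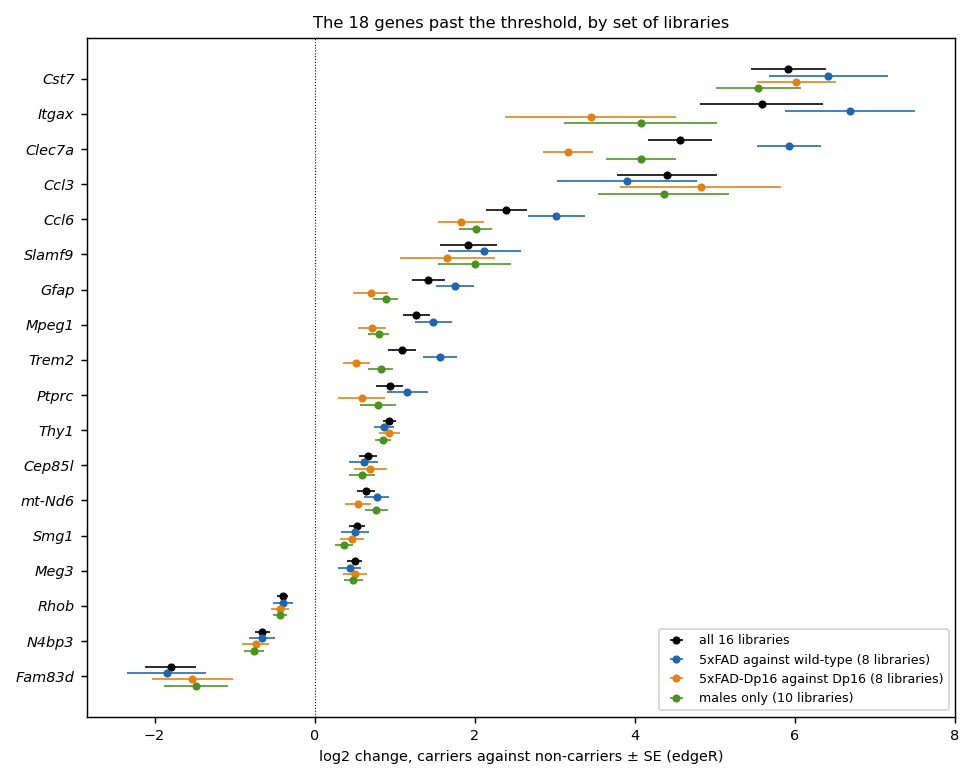
Log2 change with its SE (horizontal axis, edgeR) of the 18 genes past the threshold, over all 16 libraries, in each background of 8 libraries and in the 10 male libraries. Every estimate keeps the sign of the pooled value, and for Clec7a, Ccl6, Gfap, Mpeg1 and Trem2 the estimate with the duplication is below that without it. All carriers with the duplication are male, and carriers without it are of both sexes.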

How the data were processed

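Per the submitters' processing notes, bcl2fastq, FastQC 0.11.5, HISAT2 2.1.0, SAMtools 1.5 and HTSeq 0.6.1 were used with build GRCm38. Their roles, the strand setting and filters are not given in the sources used here. The authors deposited unnormalized counts for 55385 genes, which were tested in R 4.3.3 with edgeR 4.0.16: filterByExpr by genotype, TMM scaling, robust quasi-likelihood, terms for duplication, sex and transgene, two-sided, Benjamini-Hochberg adjustment. The RPKM values deposited by the authors gave gene lengths and levels compared between genes. CPM are the counts scaled to the library total times its TMM factor. Alternatives used DESeq2 1.42.0, limma 3.58.1 (voom), other scalings, filters, terms and subsets of libraries. Coordinates are from Gencode M21 by identifier, promoters from RefSeq. The model of the main comparison was tested on simulated counts with edgeR, DESeq2 and limma-voom, and the other models were not.

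The members and lists were chosen with earlier results of these data known. Named by rule were Thy1 and App as checks of the labels, the 12 most raised and 12 most lowered called genes of log2 CPM 0 or above on average, with a gene symbol other than a clone name and 1 sign on both backgrounds, up to 4 called members per list or else the member of smallest p. Some genes the rule or the lists hold are not reported here. Other genes, among them mt-Nd6, Meg3 and Smg1, were chosen after their values were seen. Replicate numbers did not pair the samples: of 24 same-numbered pairs 5 had deviations correlated over 0.1. The median correlation was -0.02 in these pairs and 0.00 in the 72 other pairs between groups. Of 16 libraries, 1 correlated best with a library of its own number. No replicate pair agreed within sampling noise (lowest chi-square per degree of freedom 7.93).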

Additional observations from a re-analysis of the deposited data

Results flagged for a closer look

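Of 160 groups of 4 libraries checked over 36 named genes and the library measures, 11 had an outlying library. Its gap to its nearest neighbour, as a share of the group's range, was above Dixon's 95% critical value. For normally distributed values chance gives about 1 group in 20, a rate that does not hold for counts near 0. In both flagged Itgax groups 1 library alone was above 0, so their flags were set in advance, and 11 of 160 is not compared with that rate. In 5xFAD replicate 3, App measured 604 CPM and Slco1c1, a thyroid hormone transporter of astrocytes and endothelium, 16.5 CPM, both the lowest of their group, and the median correlation with the other libraries was 0.938. In 5xFAD-Dp16, Trem2 was highest in replicate 2 at 43.0 CPM, Klf10, an immediate early gene, was highest in replicate 4 at 54.0 CPM, and Hspb1 was highest in replicate 1 at 4.30 CPM. In wild-type replicate 4, Gabrb2 was highest at 89.2 CPM, Rhob lowest at 353 CPM, and Itgax the only one above 0, at 0.0526 CPM. In Dp16, Itgax was above 0 in replicate 3 alone, at 0.203 CPM, and Irf8 was lowest in replicate 2 at 5.42 CPM.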

How the results depend on the processing

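The genes named by rule or past the threshold kept their direction in all 1146 values that the 31 alternatives gave for them. Of these values 965 stayed on the same side of the threshold, 160 lost it and 21 gained it. The alternatives reuse the same libraries, and the rule for the most raised and lowered genes asked for 1 sign on both backgrounds. Kept direction was thus partly set in advance. Other genes named in the text are not among these values, and Cldn5 changed sign in 5xFAD-Dp16 against Dp16. The count of genes higher and lower in carriers was 15 and 3, against 85 and 51 with DESeq2, 69 and 28 with no filter on low counts, 26 and 6 with genotype means averaged, 4 and 0 in males only, 7 and 0 in 5xFAD against wild-type only, and 3 higher in 5xFAD-Dp16 against Dp16 only. It was 11 and 6 with no sex term, and 21 and 6 with the gene-length trend removed. With no sex term 13 of the 18 genes passed. Slamf9, Ptprc, mt-Nd6, Meg3 and Smg1 did not, with edgeR adjusted p from 0.0721 to 0.355. Mog (edgeR adjusted p = 0.0366) and Npy (edgeR adjusted p = 0.0348) then passed. Leaving out single libraries gave 8 to 20 higher and 1 to 9 lower; 8 came without 5xFAD replicate 1 or 2, and 20 and 9 without wild-type replicate 4. With the replicate number as a block the count was 9 and 1, and since the numbers share no pairing, the lost calls are not read as weaker. Of 21 list medians 11 kept their sign throughout and 10 did not; in males only the homeostatic microglial median was -0.10, the lysosomal -0.04 and the antigen presentation one -0.10. The interaction of transgene and duplication had 0 genes, against 21 with DESeq2, 346 with no filter and 0 to 1 without single libraries (Clec7a, without wild-type replicate 1). The interaction of transgene and sex had 0 genes, against 5 with DESeq2, 7 with no filter, 1 at a mean of at least 1 CPM (Cd68) and 0 to 2 without single libraries. The cause of these shifts was not tested. The subsets also held fewer samples. Depth limits Itgax, Ccl3 and Fam83d, whose lower side held at most 4, 10 and 17 counts per library.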
